A study of Mus musculus with 6 samples.

Results

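This report describes 10 genes of the CREB pathway in RAW264.7 cells, a transformed mouse macrophage line. They were chosen by name as partners of the coactivators p300 and CBP, with their own coactivators and feedback kinases. They are the transcription factors Creb1, Crem and Atf1, the coactivators Crtc1, Crtc2 and Crtc3, the kinases Sik1, Sik2 and Sik3, and the target gene Per1. All 10 were found among the 49492 gene symbols of the deposited count table, and all 10 were high enough to be tested, of 15741 genes tested in all. The study compared 3 libraries from cells transfected with an siRNA against Ep300, the gene of p300, with 3 libraries from cells that received a non-targeting control siRNA. Both siRNAs were used at 50 nM for 48 h in otherwise untreated RAW264.7 cells, whose genotype the labels give as Ep300 silenced or WT. An siRNA lowers an mRNA for a time and leaves the gene intact, and all libraries come from 1 cell line. Whether the 3 libraries of a group were grown as separate cultures is not in the labels, and the p-values below cover the spread between libraries only, part of which may be technical.

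CREB1, CREM and ATF1 are related basic leucine zipper proteins that bind the cyclic AMP response element. When a signal such as cyclic AMP activates protein kinase A, CREB is phosphorylated in its kinase-inducible domain and then binds p300 or CBP, which acetylate histones. CRTC proteins join CREB by another route: salt-inducible kinases (SIKs) phosphorylate them, 14-3-3 proteins hold them in the cytoplasm, and cyclic AMP signalling releases them. In macrophages this pathway is known for raising Il10 and for restraining inflammatory genes. Crem, Sik1 and Per1 are themselves known CREB targets, and SIK1 and the ICER products of Crem act back on the pathway.

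Promoter sequences show where the binding letters of CREB lie in these genes. RefSeq promoter windows of 300 bases (GRCm38.p6, 250 bases before to 50 bases after a start site) were matched by symbol for 7 of the 10 genes, with 8 windows in all: Creb1, Atf1, Crtc1, Crtc3, Sik2, Sik3 and, with 2 start sites, Per1. Crem, Crtc2 and Sik1 had no window, so their promoters were not searched. The full element TGACGTCA was in none of the 8 windows, and it was in 1.79% of all 32851 windows. Its 5-base core TGACG, read on both strands and also part of the full element, was in 5 of the 8 windows, from 4 genes. It was in 20.8% of all windows. The stretches that hold it are printed 5′ to 3′ on the strand of the gene, with the core in capitals (TGACG, or CGTCA where it lies on the other strand).
Atf1, chr15:100227757-100227785, plus strand: gtgaccacgcggTGACGcagcacgccggc
Sik2, chr9:51009051-51009080, minus strand: gcccccTGACGtcggctcaCGTCAgcgccg
Sik3, chr9:46012675-46012779, plus strand: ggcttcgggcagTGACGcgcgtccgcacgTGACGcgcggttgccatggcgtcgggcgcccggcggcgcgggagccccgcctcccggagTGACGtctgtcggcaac
Per1, first start site, chr11:69098699-69098719, plus strand: ttatTGACGgtgtgagacatc
Per1, other start site, chr11:69100008-69100036, plus strand: gagctcagcggcTGACGtcggtttccctg
In Atf1 the core begins 90 bases before the start site. Sik3 holds 3 copies, 133, 116 and 57 bases before its start. The Sik2 copies point toward each other, the first beginning 1 base before its start site and the second at base 13 counted from the start site as 1. In Per1 the core begins 246 bases before the first start site and 132 bases before the other. Both Per1 windows lie inside the annotated gene, which starts at base 69095217, so the bases before that start were not searched. These matches are descriptions of letters, and binding was not measured.

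Library totals ran from 29993567 to 45377510 counts, and the deposited counts of 1 to 4 were even in 79.8% to 80.9% of cases, as counting both mates of a pair would give. Ep300 itself was at 51.1, 59.0 and 54.9 CPM (counts scaled by TMM-adjusted library size) in Ep300 siRNA replicates 1, 2 and 3, and at 106.8, 115.3 and 118.4 CPM in the controls. Its mean level after Ep300 siRNA was 0.485 of control. Crebbp, the gene of CBP, did not pass (edgeR adjusted p = 0.293), with means of 77.8 ± 4.93 CPM with Ep300 siRNA and 70.4 ± 5.76 CPM with the control (SD, n = 3). Ep300 siRNA replicate 1 stood apart in Gm42418, a gene overlapping ribosomal RNA sequence, at 5823 CPM, where the other 5 libraries held 1327 to 2174 CPM. Of 10 macrophage markers (Csf1r, Adgre1, Cd68, Lyz2 and others), 9 were high enough to test and none passed, with sums of 11050 to 11999 CPM after Ep300 siRNA and 9781 to 11434 CPM in the controls. Mertk was the marker too low to test. The 6 lists of T cell, B cell, neutrophil, fibroblast, epithelial and endothelial markers each summed to at most 1.10 CPM in any library.

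None of the 10 genes changed after Ep300 siRNA at an edgeR adjusted p under 0.05, where 6.78% of all genes tested did. In bulk RNA, fewer cells expressing a gene and less RNA per cell cannot be told apart. At an unadjusted p under 0.05 there were 2 of 10, Atf1 and Sik2, both lower, against 22.2% of all genes. The libraries of the groups did not overlap for 1 of the 10, Atf1, against 27.5% of all genes. DESeq2 and limma-voom also called 0 of the 10. With no filter on low counts, edgeR called 2, Atf1 (adjusted p = 0.00731) and Sik2 (adjusted p = 0.00906). Without Ep300 siRNA replicate 1 it called 1, Sik2 (adjusted p = 0.0388). Log2 fold changes ran from −0.29 (Sik2) to 0.23 (Crem), 5 above 0 and 5 below, with a median of 0.003 beside −0.004 for all genes tested. For 9 of the 10 the 95% interval of the fold change lay within 1.5-fold either way, and Sik1 was the exception. The same held for 10581 of the 15741 genes tested.

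**Figure D1:**
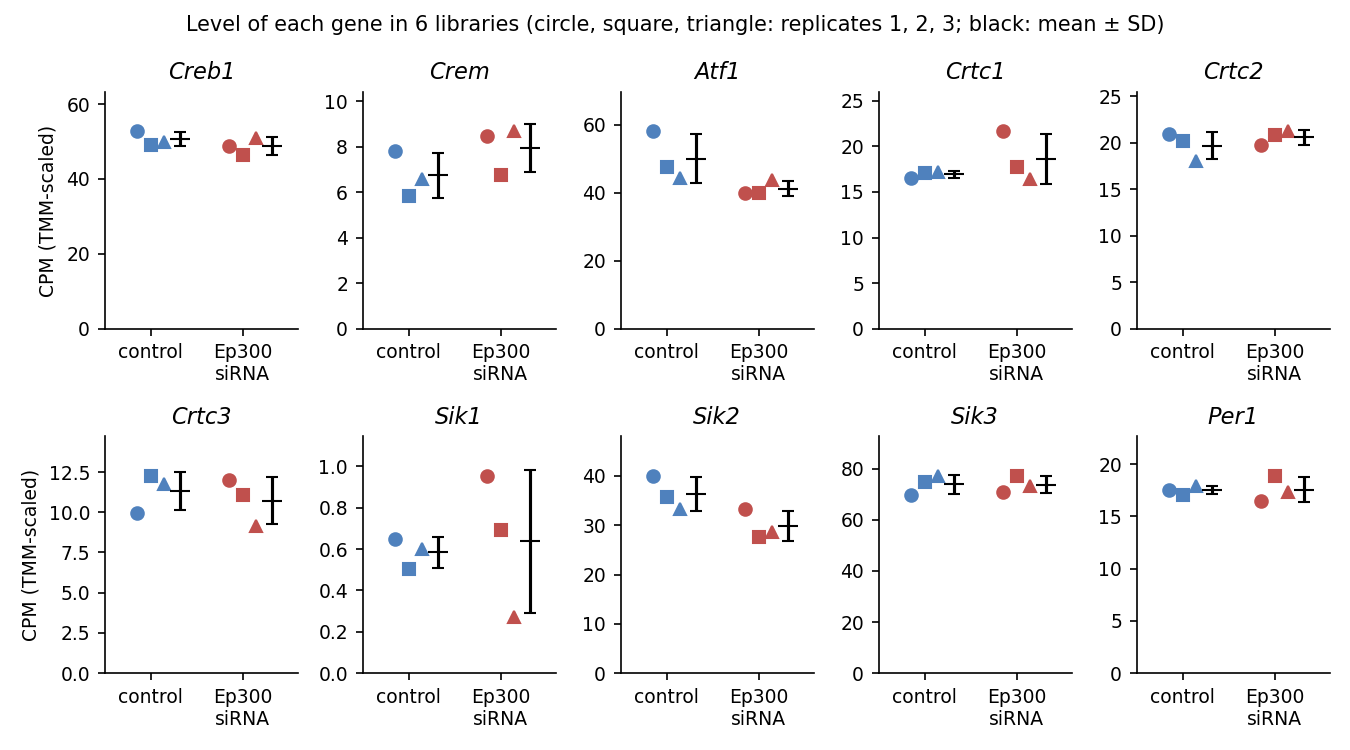
TMM-scaled CPM (y axis, from 0 in each panel) of the 10 genes in 3 control siRNA libraries (blue) and 3 Ep300 siRNA libraries (red). Circles, squares and triangles are replicates 1, 2 and 3, and black bars are the mean ± SD of each group. The groups lie apart only for Atf1, by 43.8 against 44.3 CPM at the nearest, and the Sik1 panel ends near 1 CPM.

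**Figure D2:**
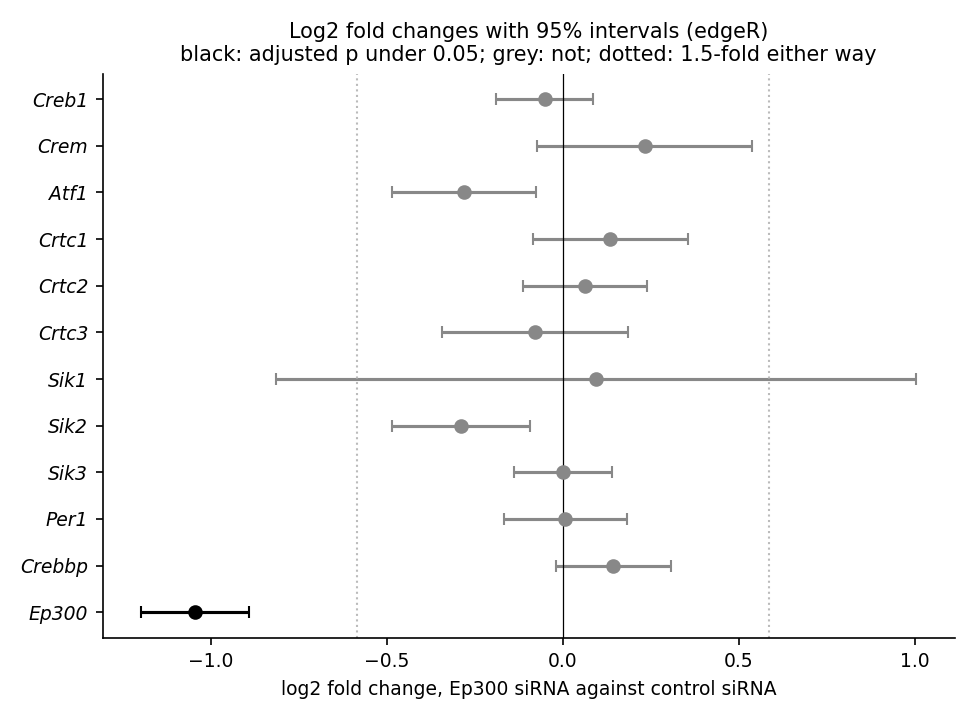
Log2 fold change of Ep300 siRNA against control siRNA (x axis) with its 95% interval from edgeR, for the 10 genes, Crebbp and Ep300. Ep300 alone is past an adjusted p of 0.05 (black), at −1.04, and Sik1 has the widest interval, from −0.81 to 1.002.

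None of the 3 factors that bind the element passed the test, and Atf1 came nearest to it. Creb1 (GRCm38 chromosome 1, 64532645 to 64604548, plus strand), the founding member of the family, was at 48.9, 46.4 and 51.0 CPM in Ep300 siRNA replicates 1, 2 and 3 and at 52.7, 49.1 and 49.9 CPM in the controls. The groups overlapped, with the lowest and the highest library in different groups. Creb1 did not pass (edgeR adjusted p = 0.687), at a log2 fold change of −0.05 ± 0.06 (SE, 95% interval −0.19 to 0.08).

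Atf1 (GRCm38 chromosome 15, 100227819 to 100261244, plus strand), a close relative that pairs with CREB1, was at 39.9, 40.0 and 43.8 CPM after Ep300 siRNA and at 58.1, 47.7 and 44.3 CPM in control replicates 1, 2 and 3. All 3 Ep300 siRNA libraries were below all 3 controls, but the highest of them was close to control replicate 3, and control replicate 1 was well above the rest. Atf1 did not pass (edgeR adjusted p = 0.100), at a log2 fold change of −0.28 ± 0.09 (SE, 95% interval −0.48 to −0.08). Over the 16 alternatives the adjusted p ran from 0.00731, with no filter on low counts, to 0.248. Without control siRNA replicate 1 the log2 fold change was −0.15 and the adjusted p 0.248. The ratio of Atf1 to Creb1 counts, which needs no scaling between libraries, was 0.817, 0.861 and 0.858 after Ep300 siRNA and 1.10, 0.972 and 0.887 in the controls. The ratios of the groups did not overlap, and control replicate 3 again lay nearest to the Ep300 siRNA libraries. They use the same Atf1 counts, and how often such ratios lie apart over all genes was not measured. The count ratios of Crem to Creb1, and of Crtc2 and Crtc3 to Crtc1, overlapped between the groups.

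Crem, on chromosome 18 (3266048 to 3337748, minus strand), encodes both activators and, from an internal promoter, the short repressors called ICER. The table counts reads per symbol, so these products are summed. Its levels were 8.46, 6.75 and 8.67 CPM after Ep300 siRNA and 7.82, 5.86 and 6.57 CPM in the controls. In both groups replicate 2 was the lowest, and the groups overlapped. Crem had the highest log2 fold change of the 10, 0.23 ± 0.14 (SE, 95% interval −0.07 to 0.54), and did not pass (edgeR adjusted p = 0.366). Of its exon bases, 8.01% overlap Gm6225 on the other strand. How the counting used strand is not given in these sources, so whether reads of such a pair were told apart is not known.

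The CRTC coactivators, which join CREB without the need for CREB phosphorylation, showed no change that passed. Crtc1 (GRCm38 chromosome 8, 70382355 to 70439579, minus strand) was at 21.6, 17.8 and 16.4 CPM after Ep300 siRNA and at 16.5, 17.1 and 17.2 CPM in the controls. Ep300 siRNA replicate 1 was high and the other 5 libraries lay close together. The log2 fold change of 0.14 ± 0.10 (SE, edgeR adjusted p = 0.477) was 0.025 without that replicate.

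Crtc2 (GRCm38 chromosome 3, 90254163 to 90264125, plus strand), the member known for control of liver glucose production, was at 19.7, 20.8 and 21.2 CPM after Ep300 siRNA and at 20.9, 20.2 and 18.0 CPM in the controls. The groups overlapped, and Crtc2 did not pass (edgeR adjusted p = 0.707), at a log2 fold change of 0.06 ± 0.08 (SE, 95% interval −0.11 to 0.24). Crtc3 (GRCm38 chromosome 7, 80586627 to 80688877, minus strand), which SIKs are known to phosphorylate in macrophages, was at 12.01, 11.05 and 9.13 CPM after Ep300 siRNA and at 9.98, 12.3 and 11.7 CPM in the controls. Each group held 1 low library, Ep300 siRNA replicate 3 and control replicate 1. At −0.08 ± 0.12 (SE) on the log2 scale Crtc3 did not pass (edgeR adjusted p = 0.763), and the value was 0.027 without Ep300 siRNA replicate 3.

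The SIK kinases hold CRTC proteins out of the nucleus, and they differed widely in level. Sik3 (GRCm38 chromosome 9, 46012820 to 46224194, plus strand) was the steadiest, at 70.7, 77.2 and 73.3 CPM after Ep300 siRNA and at 69.7, 74.6 and 77.1 CPM in the controls. The group means, 73.7 and 73.8 CPM, were nearly equal. The 95% interval of its fold change ran from 0.908 to 1.10 (edgeR adjusted p = 0.999).

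Sik2 (GRCm38 chromosome 9, 50892801 to 51009073, minus strand), on the same chromosome, was at 33.3, 27.6 and 28.6 CPM after Ep300 siRNA and at 40.02, 35.7 and 33.2 CPM in the controls. The groups met, since Ep300 siRNA replicate 1 and control replicate 3 differed by less than 0.1 CPM. Sik2 had the lowest log2 fold change of the 10, −0.29 ± 0.09 (SE, 95% interval −0.49 to −0.09), and did not pass (edgeR adjusted p = 0.0811). Over the alternatives the adjusted p ran from 0.00906, with no filter on low counts, to 0.24. Of the libraries left out in turn, only the loss of Ep300 siRNA replicate 1 made it pass (log2 fold change −0.36, adjusted p = 0.0388). That replicate is the library high in Gm42418. With Gm42418 and mitochondrial rows left out the adjusted p of Sik2 was 0.0803, but leaving out rows does not remove other differences of that library. Whether such differences bear on Sik2 was not tested. Of the exon bases of Sik2, 14.98% overlap Ppp2r1b on the other strand. Whether the counting told the reads of this pair apart is not known. Ppp2r1b, a scaffold subunit of protein phosphatase 2A, did not pass (edgeR adjusted p = 0.603), with means of 42.4 ± 1.41 CPM with Ep300 siRNA and 44.5 ± 3.27 CPM in the controls (SD, n = 3). The count ratio of Sik2 to Sik3 was 0.471, 0.358 and 0.390 after Ep300 siRNA and 0.575, 0.479 and 0.431 in the controls. These ratios overlapped between the groups.

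Sik1 (GRCm38 chromosome 17, 31844250 to 31855804, minus strand), the SIK that cyclic AMP signalling is known to induce, had the fewest counts of the 10. It held 28, 24 and 10 counts after Ep300 siRNA and 30, 18 and 22 counts in the controls, or 0.27 to 0.96 CPM. The lowest and the highest library were both in the Ep300 siRNA group. Sik1 did not pass (edgeR adjusted p = 0.927), at 0.09 ± 0.41 (SE) on the log2 scale, and the 95% interval of its fold ran from 0.569-fold to 2.00-fold. That interval includes changes of 1.5-fold in either direction.

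Per1 (GRCm38 chromosome 11, 69095217 to 69109960, plus strand), a repressor of the circadian clock with CREB-responsive transcription, was at 16.5, 18.9 and 17.3 CPM after Ep300 siRNA and at 17.5, 17.1 and 17.9 CPM in the controls. The highest and the lowest library were both in the Ep300 siRNA group. Per1 did not pass (edgeR adjusted p = 0.973), at a log2 fold change of 0.007 ± 0.08 (SE, 95% interval −0.17 to 0.18).

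**Figure D3:**
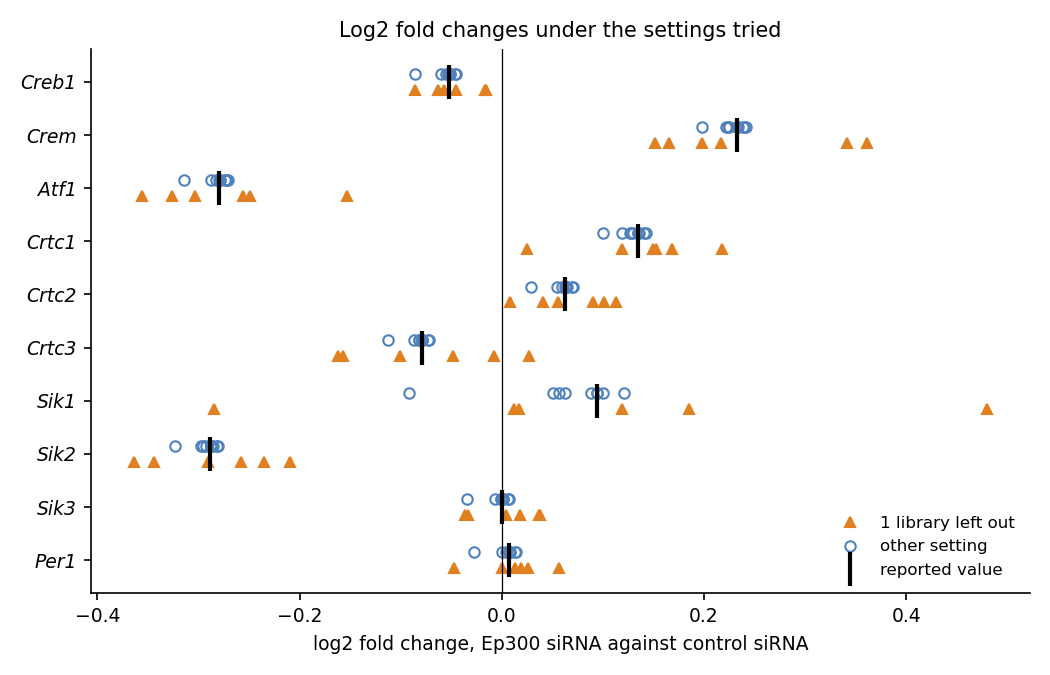
Log2 fold change (x axis) of each gene as reported (black bar), under other scalings, filters, tools and designs (open circles) and with 1 library left out (triangles). Atf1 and Sik2 lie below 0 under every setting run, from −0.36 to −0.15 and from −0.36 to −0.21, and Sik1 has the widest spread.

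Levels were compared between genes as CPM per kilobase of annotated exon, which assumes that all annotated exons are used. The mean over the 6 libraries was highest for Atf1, at 14.9 ± 2.21 (SD over 6 libraries), followed by Sik3 at 7.91 ± 0.340, Crtc2 at 4.92 ± 0.286 and Creb1 at 3.62 ± 0.154. Sik2 at 3.47 ± 0.482 and Per1 at 3.11 ± 0.143 came next on the same scale. Crtc1 was at 1.59 ± 0.175, Crem at 1.25 ± 0.192, Crtc3 at 1.12 ± 0.126 and Sik1 at 0.119 ± 0.0440. The ranges over libraries overlapped between 3 neighbours in this order: Creb1 and Sik2, Sik2 and Per1, and Crem and Crtc3. Thus Sik3 was the highest SIK and Crtc2 the highest CRTC per length, and Atf1 stood 125-fold above Sik1. Annotated exon length ran from 3060 bases for Atf1 to 13742 for Creb1. Where exons go unused, the level per kilobase is understated, by an amount that was not measured here.

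**Figure D4:**
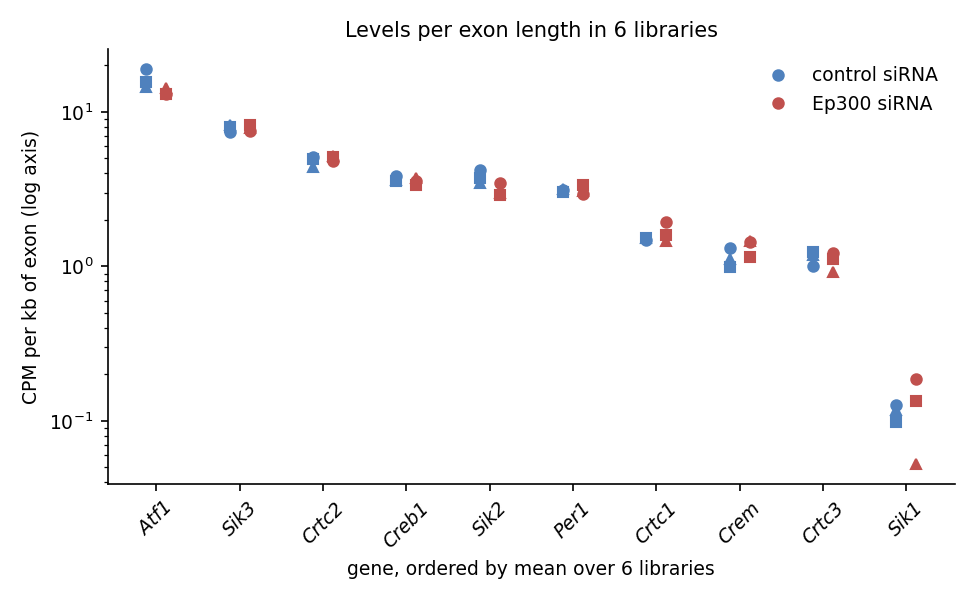
CPM per kilobase of annotated exon (log y axis) for the 10 genes, ordered by their mean over 6 libraries, with control siRNA in blue and Ep300 siRNA in red. Atf1 lies highest, with a mean of 14.9, and Sik1 lowest, with a mean of 0.119, and the groups overlap for every gene but Atf1.

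The genes around these members were described from lists of the pathway, of which the cyclic AMP and CREB target lists share Pde4b and Pde4d. Of 38 genes that make, sense or break down cyclic AMP (adenylyl cyclases, receptors, protein kinase A subunits, anchoring proteins and phosphodiesterases), 32 were tested, none rose and 1 fell, where 6.78% of all genes tested rose or fell, and the list's median log2 fold change was −0.06 beside −0.004 for all genes. Pde8b, a phosphodiesterase that breaks down cyclic AMP, was at 40.2 ± 2.68 CPM in the controls and fell to 29.99 ± 3.14 CPM (SD, n = 3; edgeR adjusted p = 0.0132). The call of Pde8b was lost without control siRNA replicate 2 (edgeR adjusted p = 0.0576), and 7.60% of its exon bases overlap Gm48420 on the other strand.

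Kinases that phosphorylate CREB besides protein kinase A, listed with kinases upstream of them, moved in both directions. Of 17, 15 were tested, 2 rose and 2 fell (4 of 15, beside 6.78% of all genes tested), with a median log2 fold change of −0.07. Rps6ka4, which encodes MSK2, rose from 13.7 ± 0.613 to 20.0 ± 0.762 CPM (SD, n = 3; 0.54 ± 0.08 on the log2 scale, SE, edgeR adjusted p = 0.0025), and no library left out ended its call. Rps6ka1, which encodes RSK1, rose from 54.9 ± 2.20 to 67.2 ± 0.861 CPM (SD, n = 3; edgeR adjusted p = 0.0121). Camk2d, a calcium and calmodulin-dependent kinase, was at 72.4 ± 3.29 CPM in the controls and fell to 58.0 ± 1.36 CPM (SD, n = 3; edgeR adjusted p = 0.00864). Mapkapk2, the p38-activated kinase MK2, fell from 228.9 ± 3.75 to 195.2 ± 4.02 CPM (SD, n = 3; edgeR adjusted p = 0.0317). Without control siRNA replicate 2 the calls of Camk2d (edgeR adjusted p = 0.0582), Rps6ka1 and Mapkapk2 were lost. Rps6ka1 also lost it without Ep300 siRNA replicate 3 (edgeR adjusted p up to 0.0599). Mapkapk2 lost it without any 1 library other than control siRNA replicate 1 (edgeR adjusted p up to 0.12). Of the exon bases of Rps6ka4, 19.8% overlap CAAA01066123.1 and Mir5046 on the same strand, and 5.80% of those of Rps6ka1 overlap Gm12977 on the other.

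Among 34 regulators of SIKs, CRTCs and CREB phosphorylation (LKB1 and its partners, AMPK-related kinases, phosphatases, 14-3-3 proteins and class IIa deacetylases), 31 were tested, 2 rose and 1 fell (3 of 31, beside 6.78% of all genes), with a median of 0.009. Ppp1cb, a catalytic subunit of the phosphatase PP1 that removes the activating phosphate of CREB, rose from 58.3 ± 0.747 to 80.2 ± 1.54 CPM (SD, n = 3; 0.46 ± 0.06 on the log2 scale, SE, edgeR adjusted p = 0.000919), a call kept with each library left out in turn. Mark4, a kinase of the AMPK-related family to which SIKs belong, rose from 40.1 ± 2.48 to 49.9 ± 2.56 CPM (SD, n = 3; edgeR adjusted p = 0.0184). Nuak2, another kinase of that family, fell from 13.0 ± 0.614 to 9.499 ± 1.24 CPM (SD, n = 3; edgeR adjusted p = 0.0289). Mark4 lost its call without control siRNA replicate 3 and without either of Ep300 siRNA replicates 1 and 2 (edgeR adjusted p up to 0.0697). Nuak2 lost it without any of those libraries or control siRNA replicate 2 (edgeR adjusted p up to 0.111). Of the exon bases of Ppp1cb, 17.5% overlap Gm43312 on the same strand, and the rows of the table do not show to which gene such reads went. Among 19 other CREB and ATF factors, 17 were tested, none rose and 1 fell (1 of 17, beside 6.78% of all genes, median 0.07). Atf7, a relative of ATF2, fell from 21.9 ± 1.46 to 17.0 ± 1.15 CPM (SD, n = 3; edgeR adjusted p = 0.0253). That call was lost without any 1 of Ep300 siRNA replicates 1 and 3 and control siRNA replicates 2 and 3 (edgeR adjusted p up to 0.11), and 11.7% of its exon bases overlap Gm28047 on the same strand.

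Genes known as CREB targets did not share a direction. Of 31, 20 were tested, 1 rose and 4 fell (5 of 20, beside 6.78% of all genes tested), with 10 log2 fold changes above 0 and 10 below (median −0.01). Nr4a3, an orphan nuclear receptor, was the rise, with a log2 fold change of 1.14 ± 0.26 (SE, edgeR adjusted p = 0.0231) at 0.99 CPM in the controls. The falls were Dusp1, a phosphatase of MAP kinases (−0.58 ± 0.12, SE), Fos, a subunit of AP-1 (−0.55 ± 0.11, SE), Odc1, which starts polyamine synthesis (−0.27 ± 0.07, SE), and Mcl1, an anti-apoptotic protein (−0.23 ± 0.06, SE). Their edgeR adjusted p ran from 0.0128 (Dusp1) to 0.0483 (Mcl1). Each of the 5 calls was lost without control siRNA replicate 3, with edgeR adjusted p up to 0.0533 for Fos, 0.0567 for Dusp1, 0.0992 for Nr4a3, 0.13 for Odc1 and 0.19 for Mcl1 over the libraries left out. Control siRNA replicate 2 also ended all but that of Fos, Ep300 siRNA replicates 2 and 3 those of Nr4a3, Odc1 and Mcl1, and Ep300 siRNA replicate 1 those of Odc1 and Mcl1. Mcl1 also lost its call with RLE scaling. Il10, the best known CREB target of macrophages, had at most 2 counts in any library and was not tested.

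Among clock genes other than Per1, a pair of repressors fell. Of 23, 18 were tested, none rose and 2 fell (2 of 18, beside 6.78% of all genes), with a median of −0.10. Bhlhe41, a repressor that competes with the clock activators at E-boxes, fell from 101.3 ± 0.695 to 73.6 ± 1.56 CPM (SD, n = 3), a log2 fold change of −0.46 ± 0.05 (SE, edgeR adjusted p = 0.000878). Its paralog Bhlhe40 was at 50.6 ± 1.95 CPM in the controls and fell to 37.9 ± 3.07 CPM, with SD over 3 libraries (−0.42 ± 0.07 on the log2 scale, SE, edgeR adjusted p = 0.00568). Both calls were kept in each of the 16 alternatives. Per2, the paralog of Per1, was at 1.14 ± 0.0639 CPM after Ep300 siRNA and 1.76 ± 0.0941 CPM in the controls (SD, n = 3) and did not pass (edgeR adjusted p = 0.0939). It was picked after its value was seen, as the closest relative of Per1. Of the exon bases of Bhlhe41, 19.0% overlap Gm43909 on the other strand, and 2.51% of those of Bhlhe40 overlap 0610040F04Rik.

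**Figure D5:**
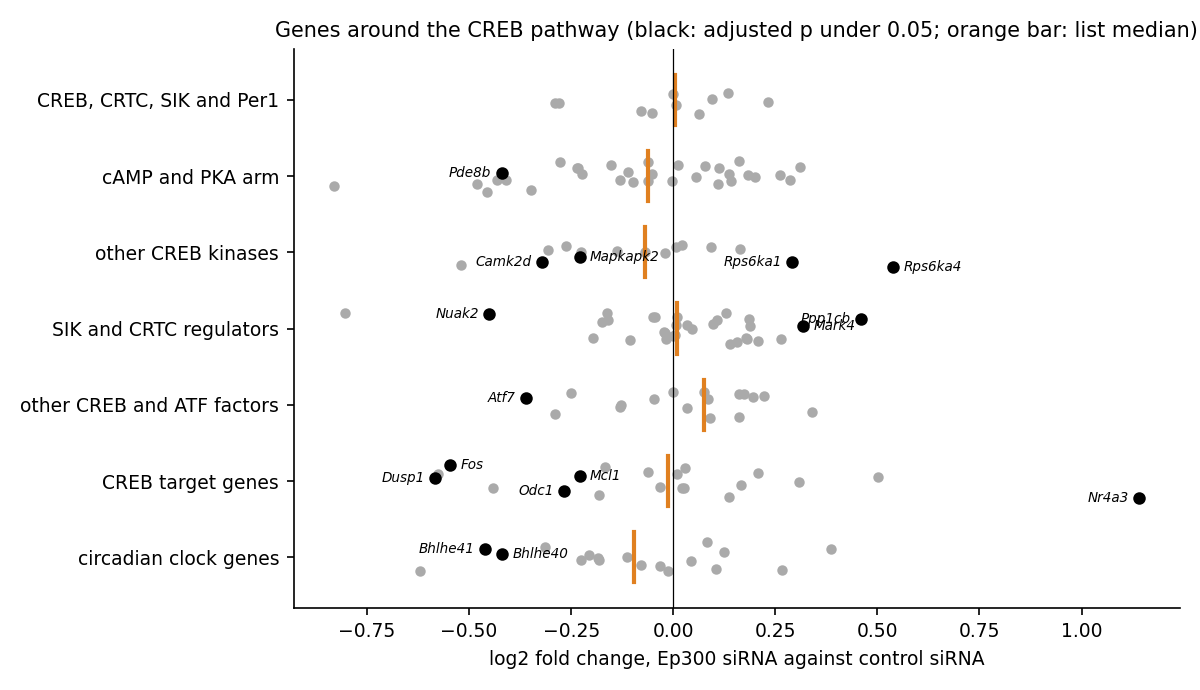
Log2 fold change (x axis) of the tested genes in each list, with genes past an edgeR adjusted p of 0.05 in black and named, and the list median in orange. No gene of the top row passed. Named genes lie on both sides of 0 in the rows of CREB kinases, SIK and CRTC regulators and CREB targets. In the rows of cyclic AMP genes, other CREB and ATF factors and clock genes they lie below 0.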

How the data were processed

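Stranded mRNA libraries were made from 6 RAW264.7 samples, per the labels' protocols. The authors deposited raw counts per gene symbol, 1 column per library, and columns were matched to samples by name. The submitters' processing notes name GRCm38, STAR 2.5.3a, fastp 0.23.4, edgeR 3.12.1 and featureCounts. Not given in the sources used here are the annotation, the strand and multimapping settings and any molecular identifiers. Reads that overlapping genes share, and PCR copies, limit what a count shows.

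Counts were tested as deposited with edgeR 4.0.16 (R 4.3.3): filterByExpr by group, TMM scaling, and the two-sided quasi-likelihood test between the 2 groups without covariates, Benjamini-Hochberg over 15741 genes, threshold 0.05. SE came from the fold change and F statistic. The biological coefficient of variation was 8.62%. The step was tested on simulated data. Coordinates, exon lengths and overlaps came from GENCODE M21 (GRCm38), where 47229 of 49492 symbols were found, and 11 symbols had turned into dates. Cop1 was matched as Rfwd2. Alternatives were DESeq2 1.42.0, limma 3.58.1 (voom), 3 other scalings (RLE, upper quartile, library size), no filter, a filter of 1 CPM in 3 libraries, halved counts, a replicate block, leaving out mitochondrial rows and Gm42418, and leaving out each library. Sequences came from RefSeq through Python 3.11.15.

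Named genes are the 10 genes, Ep300, Crebbp and, per pathway list, up to 3 called genes per direction, taken by p. Mcl1, Il10, Per2, Mertk, Gm42418, Ppp2r1b and other genes overlapping a named gene were added after their values were seen. Genes and lists were chosen with earlier results of these data known. A gene of the lists is not reported here.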

Additional observations from a re-analysis of the deposited data

How the results depend on the processing

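Ep300 kept its direction and its call under all 16 alternatives (log2 fold change from −1.095 to −0.985). The count of genes changed, 1068, was 1721 with no filter on low counts, 1367 by DESeq2 and 1357 with the replicate number as a block. It ran from 490 to 1054 with 1 library left out. Of the 10 members, 0 changed in the reported test, 2 with no filter on low counts (Atf1 and Sik2), 1 with the replicate number as a block (Sik2, adjusted p = 0.0246), and from 0 to 1 with 1 library left out. The cause of the gain without a filter was not tested. Deviations of same-numbered libraries correlated at 0.09, 0.02 and −0.05 across genes. With 3 libraries per group, this check cannot show whether replicate numbers pair the libraries. Creb1, Crem, Atf1, Crtc1, Crtc2 and Sik2 kept their direction in all alternatives. Sik3, at −0.0003, was 0.006 with RLE scaling, 0.000 with upper-quartile scaling and without mitochondrial rows and Gm42418, 0.001 with at least 1 CPM in 3 libraries and by limma-voom, 0.007 by DESeq2, and −0.036 to 0.038 with 1 library left out. Per1 was −0.027 with library sizes alone, 0.000 with no filter, and −0.047 to 0.057 with 1 library left out. Sik1 was −0.092 by limma-voom and −0.285 to 0.48 with 1 library left out. Crtc3 ranged from −0.162 to 0.027 there. Over all alternatives, changed genes per list ranged from 0 to 6 for cyclic AMP genes, 1 to 4 for CREB kinases, 1 to 4 for SIK and CRTC regulators, 0 to 2 for other CREB and ATF factors, 0 to 8 for CREB targets and 2 to 3 for clock genes. These lists' alternatives were added after the data were seen. Depth is lowest for Sik1, which has 10 to 30 counts.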
